A study of Mus musculus with 5 samples.

Results

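The 10 genes Cyfip2, Thg1l, Gm12167, Jmjd7, Pla2g4b, Gsg1l, Glo1, Cwc22, Zfp945 and AI506816 were read by symbol from spatial transcriptomes of 5 neonatal mouse heart sections, out of 13711 genes listed in all 5 tables. All 10 were found in every table. They had been picked on measured values of these same sections, either for a level that stepped from one section to another or for lying next to such a gene in the genome, and the rule had no numerical limit. Differences between sections are therefore described here with no test. The tests are kept for what the rule did not use. They compare classes of spots within sections, and then ask whether the MI minus sham difference was unequal between a pair of classes. Only the second kind bears on whether a step was equal over the heart, and only where the step followed surgery. It does not measure the steps of Cwc22 and Zfp945, which cut across surgery.

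The hearts came from wild-type C57BL/6 mice that had sham surgery or a myocardial infarction (MI) through ligation of the LAD, a coronary artery of the left heart, at postnatal day 1. One section each was measured for sham day 3, MI day 3 and sham day 7 after surgery, and 2 sections for MI day 7, all cut about 200 µm below the suture. The labels list no allele or agent other than the surgery for any group, and each section is one slice of a heart. The supplement to the study calls the MI day 7 sections biologically independent, which the labels leave unsaid. Xist, the RNA of the inactive X chromosome, was listed in the sham day 3 section and in MI day 7 replicate 1, whereas the Y-linked Ddx3y was listed with values above 0 in the other 3 sections. Visium captures poly(A) RNA on barcoded spots that each cover several cells, so fewer cells of a type and less RNA per cell cannot be told apart.

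The members have unrelated textbook roles. Cyfip2 is a subunit of the WAVE complex, which drives branched actin assembly, and Thg1l adds the guanylate that histidine tRNA needs at its 5′ end. Glo1 is glyoxalase I, the first enzyme of methylglyoxal removal. Jmjd7 is a JmjC-domain hydroxylase, Pla2g4b a cytosolic phospholipase A2, and Gsg1l an auxiliary subunit of AMPA-type glutamate receptors. Cwc22 is a splicing factor that recruits the exon junction complex, Zfp945 encodes a zinc finger protein, and AI506816 and Gm12167 are annotated as non-coding. Genome segments around Glo1 and Cwc22 are known to vary in copy number among laboratory mouse strains, and no DNA was measured here.

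The sections held 544, 376, 960, 693 and 791 spots in the order sham day 3, MI day 3, sham day 7, MI day 7 replicate 1 and MI day 7 replicate 2, with 11396022 to 37492530 unique molecular identifiers (UMIs) per section and a median of 20842.5 to 53940 per spot. MI day 7 replicate 1 was the deepest and had 24.7% mitochondrial counts, against 13.8% to 15.8% in the other 4 sections. Summed cardiomyocyte markers (Myh6, Tnnt2, Actc1, Myl2 and Tnni3) reached 33616 to 41393 CPM (counts scaled to one fixed total per spot) in every section. Levels below are the mean over spots of each spot's CPM, which is not divided by gene length. The table of sham day 3 holds raw UMI counts and the other 4 hold depth-corrected counts, so counting intervals, and the limits that a count of 0 allows, are given for sham day 3 only and cover counting error only. Of 1948 spot barcodes, 897 occurred in at least 2 sections, since barcodes name positions on the slide.

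Cyfip2, Thg1l and Gm12167 lie close together on chromosome 11 and were all higher in the 3 MI sections than in both sham sections. Cyfip2 (chr11:46193850-46312859, minus strand, GRCm38) averaged 1.93 CPM in sham day 3, 5.17 in sham day 7, 12.1 in MI day 3, and 28.6 and 25.9 CPM in MI day 7 replicates 1 and 2. The highest section was 14.8-fold above the lowest. The sham day 3 value rests on 21 UMIs in 20 of 544 spots (95% exact Poisson interval 13.0 to 32.1 UMIs), whereas 76.8% of the spots of MI day 7 replicate 1 held at least 1 count. The 2 MI day 7 sections lay close together, at 27.3 ± 1.87 CPM (SD, n = 2), although one listed Xist and the other Ddx3y. The Cyfip2 ranges over spot classes overlapped between the 2 sham sections and between the 2 MI day 7 sections, and did not overlap between sham day 7 and MI day 3 or between MI day 3 and MI day 7.

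Thg1l (chr11:45946843-45955494, minus strand) was at 1.84 CPM in sham day 3 and 1.67 in sham day 7. Among the MI sections it gave 7.57 CPM at day 3, and 5.44 and 6.18 at day 7. The section means formed 2 tiers. By class, MI day 7 replicate 2 went down to 2.14 CPM in CM4 spots and sham day 7 went up to 3.70 CPM in EC spots, so these ranges overlapped, while those of MI day 3 and MI day 7 replicate 1 lay above both sham ranges. Gm12167 (chr11:46342287-46345020, plus strand) gave 0.653 CPM in sham day 3 and 1.22 in sham day 7. Its values were 4.36 CPM in MI day 3 and 8.94 and 6.53 in MI day 7. By class, sham day 7 went up to 2.13 CPM in FB spots and MI day 3 down to 1.27 in EC spots. These 2 ranges of Gm12167 overlapped. Only 8 UMIs lay behind the sham day 3 value of Gm12167 (3.45 to 15.8), so its 13.7-fold range is loosely fixed.

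To place these 3 starts, the 250 bases before each RefSeq start were read from the RefSeq promoter table (GRCm38.p6). The RefSeq start of Cyfip2 lies inside the GENCODE interval given above, so its window lies within that interval. Capitals mark TATAAA on either strand, which was present in the Thg1l window and not in the other two. The windows are chr11:46312359-46312608 (minus), chr11:45955504-45955753 (minus) and chr11:46342037-46342286 (plus), and they hold 16, 6 and 2 CG dinucleotides.
Cyfip2: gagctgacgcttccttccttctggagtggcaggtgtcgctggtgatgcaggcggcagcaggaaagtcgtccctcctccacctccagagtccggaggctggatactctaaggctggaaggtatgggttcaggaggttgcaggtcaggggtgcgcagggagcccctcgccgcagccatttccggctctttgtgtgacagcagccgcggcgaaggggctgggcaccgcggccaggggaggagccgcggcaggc
Thg1l: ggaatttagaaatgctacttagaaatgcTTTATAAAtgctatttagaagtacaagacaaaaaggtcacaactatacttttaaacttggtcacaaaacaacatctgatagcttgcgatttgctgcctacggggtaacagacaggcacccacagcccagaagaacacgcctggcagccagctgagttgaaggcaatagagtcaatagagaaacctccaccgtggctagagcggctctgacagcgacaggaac
Gm12167: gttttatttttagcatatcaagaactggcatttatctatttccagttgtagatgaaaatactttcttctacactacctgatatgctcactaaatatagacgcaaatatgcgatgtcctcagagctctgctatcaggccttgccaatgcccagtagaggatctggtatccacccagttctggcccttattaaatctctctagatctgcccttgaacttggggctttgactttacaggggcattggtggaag
The CG content places the Cyfip2 window above 74.4% of all 27025 promoter windows of this length and the Gm12167 window above 19.4% of them. Windows were on hand for 8 members (not Gsg1l or Pla2g4b). TATAAA on either strand occurred in 2 of the 8, Thg1l and Jmjd7, and in 13.0% of all windows. The letters TGACNNNGC, the core of the antioxidant response element that NRF1 and NRF2 bind, occurred on neither strand in any of the 8 and in 10.1% of all windows. The 3 windows of the chromosome 11 genes thus share neither of these letter strings, and a match or its absence in such a window says nothing on binding.

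**Figure D1:**
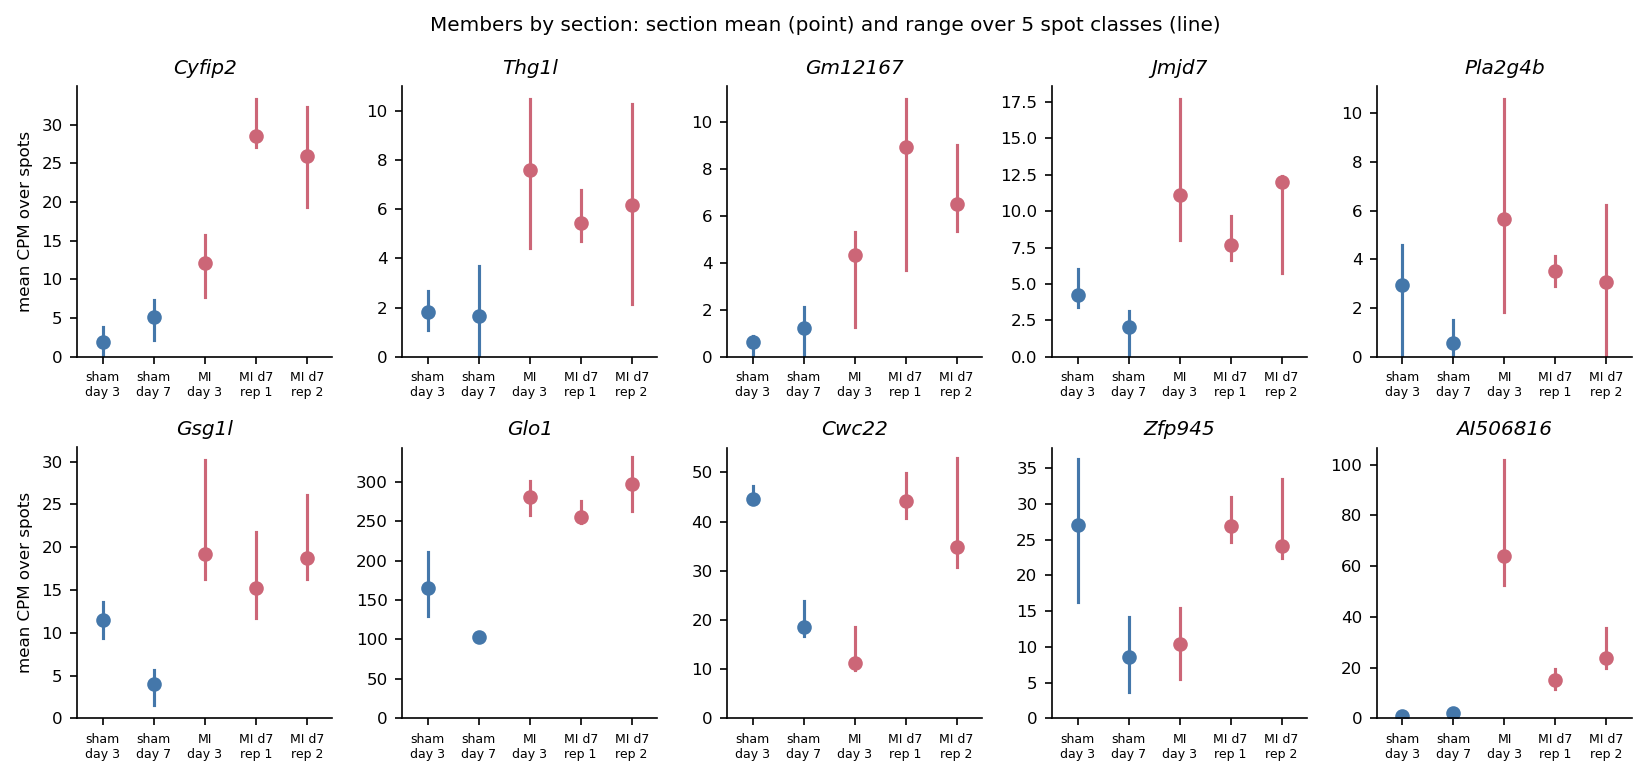
Mean CPM per spot (y axis) of each member in the 5 sections (x axis), one panel per gene, with points for the section mean and lines for the range over the 5 spot classes (blue sham, red MI). The 3 MI sections sit above both sham sections in 8 of 10 panels, while Cwc22 and Zfp945 are low in MI day 3 and sham day 7.

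Glo1, Jmjd7, Pla2g4b and Gsg1l were also higher in every MI section than in either sham section. Glo1 (chr17:30584936-30626871, minus strand) was at 166 CPM in sham day 3 and 102 in sham day 7, against 280, 255 and 297 in MI day 3 and the 2 MI day 7 sections. The Glo1 values rest on 1906 UMIs in sham day 3 and were above 0 in 88.3% to 100% of spots. Its 3 MI levels overlapped in their class ranges, and the sham sections did not overlap with them or with each other. Gsg1l (chr7:125878420-126082411, minus strand) was at 4.04 CPM in sham day 7 and 11.5 in sham day 3, and at 15.2, 18.7 and 19.2 CPM in MI day 7 replicates 1 and 2 and in MI day 3. Sham day 7 alone stood apart for Gsg1l, since the class ranges of sham day 3 overlapped those of the next MI section.

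Jmjd7 and Pla2g4b are neighbours on chromosome 2 and both were lowest in sham day 7. Jmjd7 (chr2:120027483-120032594, plus strand) was at 2.07 CPM in sham day 7, 4.24 in sham day 3, 7.68 and 12.0 in MI day 7, and 11.1 in MI day 3. Pla2g4b (chr2:120033417-120043030, plus strand) was at 0.550 CPM in sham day 7, where 12 spots of 960 held a count, and at 2.95 in sham day 3. The MI sections gave 3.08 and 3.51 CPM at day 7 and 5.64 at day 3. The sham day 3 and the lower MI day 7 value of Pla2g4b differ 1.04-fold and their class ranges overlap, so its separation by surgery is slight. Both genes share their strand with the readthrough gene Gm28042, which matched the last 500 bases of each at 100% and is not listed in the tables. Reads of the 3 genes cannot be told apart there.

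AI506816 (chr5:23698296-23712667, minus strand) had the widest range of the 10. It was at 1.08 CPM in sham day 3 and 2.26 in sham day 7. In the MI sections it was at 63.9 CPM in MI day 3 and at 15.0 and 23.7 in MI day 7. The class ranges of the 3 MI sections did not overlap with each other or with the sham sections. The 58.9-fold range is taken against 12 UMIs in sham day 3 (6.20 to 21.0). The 2 MI day 7 sections differed by 0.63 on the log2(CPM + 1) scale, more than any other member.

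Cwc22 and Zfp945 stepped along another line, with low levels in MI day 3 and sham day 7. Cwc22 (chr2:77881159-77946375, minus strand) was at 11.2 CPM in MI day 3 and 18.6 in sham day 7, and at 34.9, 44.1 and 44.6 in MI day 7 replicates 2 and 1 and in sham day 3. Zfp945 (chr17:22846697-22867134, minus strand) was at 8.56 CPM in sham day 7 and 10.4 in MI day 3, and at 24.1, 26.9 and 27.0 CPM in the same 3 sections. For both genes the class ranges overlapped within the low pair and within the high 3, and not between them. The day of the section, the surgery and the Xist or Ddx3y listing each cut across this split, since the high sections are one sham and both MI day 7 sections.

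The separation of all MI sections from both sham sections in 8 of 10 members compares with 6.84% of 12933 genes, but it was used to pick members and nothing is read from it. Between the 2 MI day 7 sections, which share all labels, the members differed by a median of 0.25 on the log2 scale, and the 12933 genes by 0.19. Jmjd7 and AI506816 differed most, by 0.58 and 0.63.

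The step was present in every spot class for most members. Each spot carries 11 cell type scores that the authors transferred from single-nucleus data, and spots were put in the class of their highest score. CM1 and CM4 are cardiomyocyte classes, and FB, EC and EndoEC name fibroblast, endothelial and endocardial scores. These 5 classes held at least 20 spots in every section. Spots of every class are mixed. Summed cardiomyocyte markers ran from 37030 to 43939 CPM in CM1 spots. In FB, EC and EndoEC spots they ran from 25163 to 37821, 32178 to 42906 and 26536 to 39351 CPM. A step in cardiomyocytes alone could therefore also show in those classes. Whether a step lay in 1 cell type was not tested. In each class, the step was taken as the log2(CPM + 1) difference between the sections that were highest and lowest over all spots.

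Cyfip2 stepped by 3.27 in CM1, 2.75 in CM4, 3.75 in FB, 5.10 in EC and 2.70 in EndoEC spots. At the EC step, Cyfip2, Gm12167 and AI506816 were at 0 in the 30 EC spots of sham day 3, which allows up to 4.35 CPM (3 UMIs). With the level taken at that limit, their EC steps were 2.68, 0.94 and 3.51. Glo1, the member with the most counts, had nearly one size of step throughout, from 1.36 in CM4 to 1.73 in FB spots. AI506816 stepped by 4.55 in CM1 to 5.93 in EC spots, and Cwc22 by 1.24 in FB to 2.05 in CM1 spots. Zfp945 ran from 1.17 in EndoEC to 1.87 in CM4, and Gm12167 from 1.37 in EndoEC to 3.36 in EC spots. Thg1l ran from 1.25 in EC to 3.52 in CM4, where it was at 0 in the 58 spots of sham day 7, and Gsg1l from 1.56 in FB to 3.62 in CM4. With a level of 0 taken as 0, none of these 8 genes had a step under 1 in any of the 5 classes, and with the sham day 3 zeros at their limit Gm12167 did.

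Jmjd7 and Pla2g4b were the exceptions. Jmjd7 stepped by 0.76 in EC spots and by 1.94 to 2.84 in the other 4 classes. Its EndoEC step of 2.76 set 4 corrected counts in MI day 7 replicate 2 (5.75 CPM) against 0 in the 43 EndoEC spots of sham day 7. Pla2g4b stepped by 0.47 in EndoEC and 0.84 in CM4 spots, and by 1.82 to 2.95 in the others, and it was at 0 in 57 CM4 spots of sham day 3 (up to 2.88 CPM), 69 EC spots of sham day 7 and 94 FB spots of MI day 7 replicate 2. In these classes its values rest on few counts. A step of at least 1 in all 5 classes was thus seen in 8 of 10 members (7 with the sham day 3 zeros at their limit, chosen after seeing the data) and in 416 of 13690 genes, or 3.04%, and the count is a description because the same sections chose the members. Without the sham day 7 section, 4 members kept such a step (Cyfip2, Gm12167, Cwc22 and AI506816), and without MI day 3, 6 did.

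**Figure D2:**
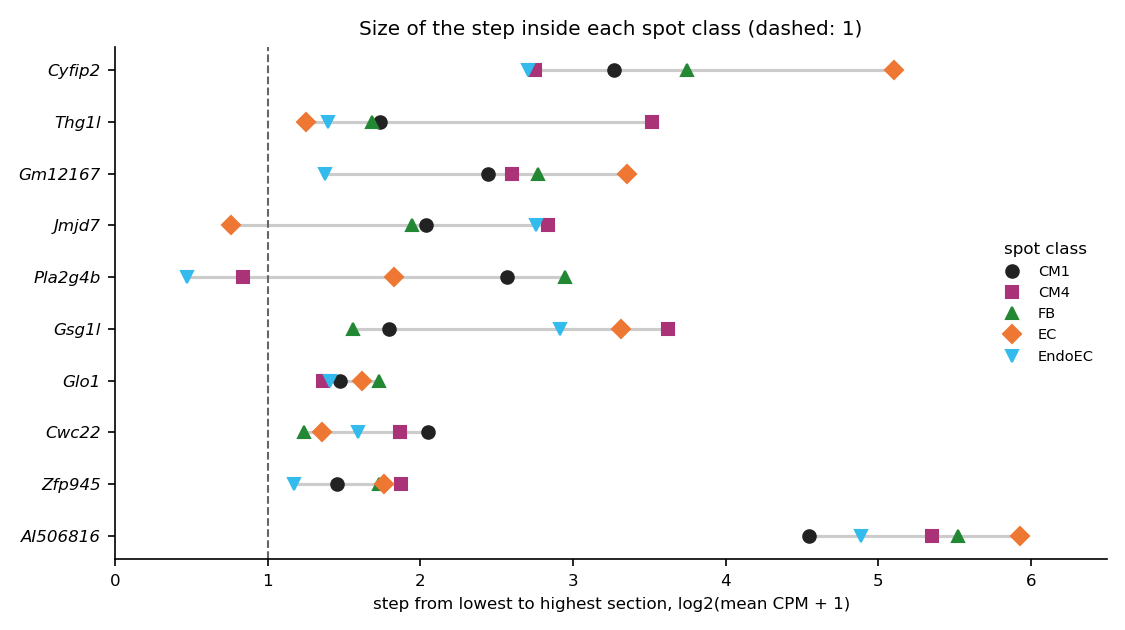
Difference in log2(CPM + 1) between the highest and the lowest section (x axis) within each of the 5 spot classes (points), for the 10 members (y axis), with levels of 0 taken as 0 and a dashed line at 1. All points of 8 members lie above the line, and Jmjd7 in EC and Pla2g4b in CM4 and EndoEC spots lie below it.

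Of the sum of squares of the log2 values over 5 sections and 5 classes, sections took a median of 86.3% in the members and 31.9% over all genes, and classes took 2.93% and 17.2%. The members had been picked for differences between sections, so these shares are set in part by that choice and nothing is read from the contrast with all genes. Among the members the section share was 96.8% for AI506816, 95.8% for Glo1, 91.0% for Cwc22, 89.4% for Gsg1l, 89.2% for Cyfip2, 83.4% for Gm12167, 78.8% for Jmjd7, 76.7% for Zfp945 and 71.4% for Thg1l. Pla2g4b had the lowest share, 41.1%. For the 8 members with all MI sections above both sham sections, that order also held within nearly every class. With levels of 0 taken as 0, it failed only for Jmjd7 in EC spots and for Pla2g4b in FB, EC and EndoEC spots. For Jmjd7, MI day 7 went down to 5.97 CPM against 6.00 in sham day 3. Gm12167 in EC spots kept the order by 1.27 CPM in MI day 3 (1 count) against 1.24 in sham day 7 (2 counts). Its 0 in sham day 3 allows up to 4.35 CPM there, so that order is not fixed.

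Within a section the levels were even for some members and uneven for others. When each section was cut into 4 quadrants around the centre of its spots, Glo1 ran from 100 to 104 CPM in sham day 7 and from 290 to 307 CPM in MI day 7 replicate 2. Thg1l ran from 2.50 to 10.5 CPM over the quadrants of MI day 3, and Gm12167 from 2.09 to 6.21. Every quadrant of Cyfip2 in sham day 7 (2.08 to 8.51 CPM) lay below every quadrant in MI day 3 (9.86 to 13.3 CPM) and in both MI day 7 sections (23.2 to 30.8 CPM). AI506816 ran from 50.7 to 90.6 CPM over the quadrants of MI day 3 and from 0 to 2.11 in those of sham day 3. Spots at the tissue edge gave 20.8 CPM of Cyfip2 in MI day 7 replicate 2, against 27.3 in the interior, and 289 against 299 CPM of Glo1 and 17.3 against 19.1 CPM of Gsg1l there. Gsg1l, Glo1 and Jmjd7 were lower at the edge in 5 of 5 sections. Cyfip2, Pla2g4b, Cwc22, Zfp945 and AI506816 were lower there in 4 of 5, Thg1l in 2 of 5 and Gm12167 in 1 of 5. The Gsg1l values lay between 18.4 against 19.4 CPM in MI day 3 and 7.80 against 16.5 CPM in MI day 7 replicate 1.

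Averaged over the 5 sections, no member was called between CM4 and CM1 spots. CM4-dominant and CM1-dominant spots were compared with limma on log2(mean CPM + 1) of each section and class, with the section as a block, so that the step itself drops out. Of 13285 genes, 145 were higher and 8 lower in CM4 spots at an adjusted p under 0.05, or 1.15%, and 94.8% of the calls were higher (68.4% with median-of-ratios scaling). Among the members 1, AI506816, had an unadjusted p under 0.05. AI506816 was 0.42 higher on the log2 scale in CM4 spots (95% interval 0.02 to 0.81, limma adjusted p = 0.390), in 5 of 5 sections. The intervals bound what a class difference could be: −0.30 to 0.05 for Glo1, −0.45 to 0.51 for Cyfip2, −0.12 to 0.43 for Cwc22 and −0.33 to 0.59 for Gsg1l. They were widest for Pla2g4b (−1.10 to 0.30) and Thg1l (−1.04 to 0.22).

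Non-cardiomyocyte spots, those with a highest score for FB, EC, EndoEC, Pericyte/SMC, Macrophage or EPI, were set against CM1 spots in the same way. Here 3963 of 13334 genes were higher and 461 lower, or 33.2%, with 89.6% of calls higher (48.9% with median-of-ratios scaling) and a median over all genes of 0.16. None of the 5 cardiomyocyte markers was called lower (3 with median-of-ratios scaling). Of the members, 1 of 10 passed. Cwc22 rose by 0.23 in non-cardiomyocyte spots (SE 0.08, 95% interval 0.06 to 0.41, limma adjusted p = 0.0421) and was higher in 5 of 5 sections, by 0.01 to 0.50. The call ended when the mitochondrial and haemoglobin genes were left out of the scaling (0.15) or with median-of-ratios scaling (0.05, adjusted p = 0.685), and without any one section other than sham day 3 (adjusted p = 0.0735 to 0.122). Cyfip2 differed by −0.14 (−0.39 to 0.12) and Glo1 by 0.05 (−0.07 to 0.16). With median-of-ratios scaling the Glo1 difference took the opposite sign and lay outside that interval.

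**Figure D3:**
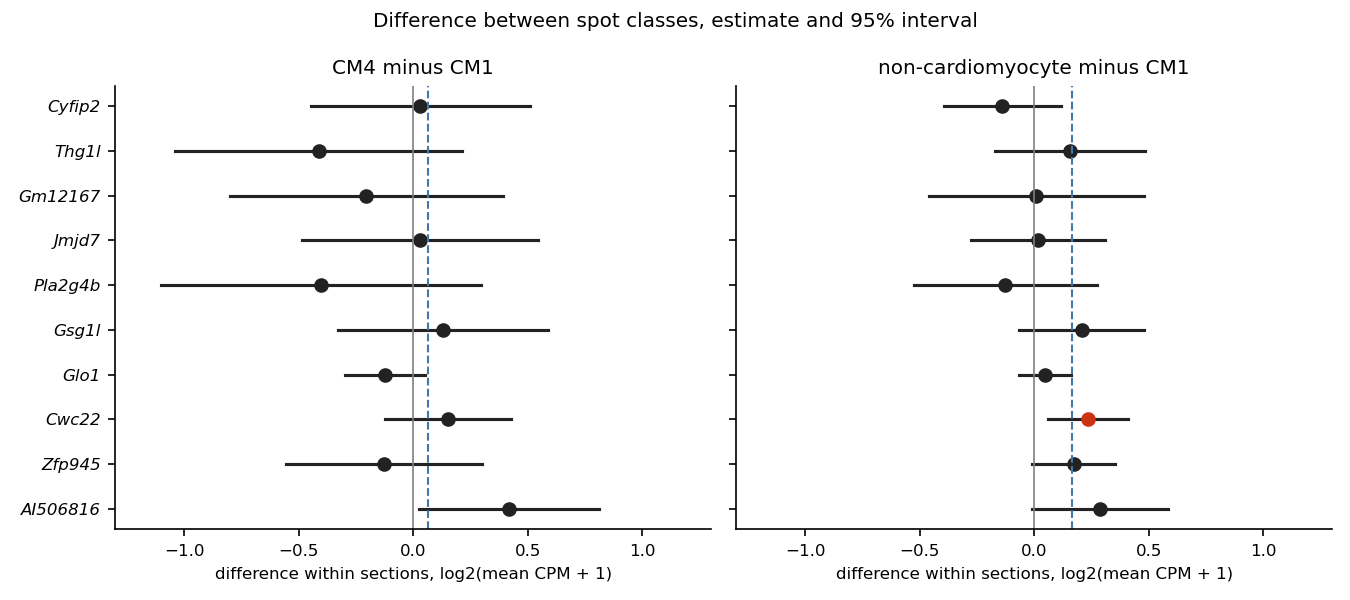
Log2 difference of each member (y axis) between CM4 and CM1 spots and between non-cardiomyocyte and CM1 spots (x axis, log2(CPM + 1) units), with 95% limma intervals, a dashed line at the median of all genes and the called gene in red. Every interval but those of AI506816 (CM4) and Cwc22 (non-cardiomyocyte) spans 0.

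The MI minus sham difference was then compared between classes, over 3 MI and 2 sham sections. For CM4 against CM1 spots, 210 of 13285 genes had a larger and 20 a smaller difference in CM4 spots, or 1.73%, with 91.3% of the calls larger (37.0% with median-of-ratios scaling). Zfp945 was the only member called, at 1.20 (SE 0.29, 95% interval 0.60 to 1.81, limma adjusted p = 0.0385), where the median over all genes was 0.28. Its CM4 minus CM1 difference was −0.64 and −1.06 in sham day 3 and sham day 7. It was 0.71 in MI day 3 and 0.16 and 0.20 in the MI day 7 sections, so the groups did not overlap. The step of Zfp945 cut across surgery, and over all spots its MI minus sham difference was 0.29. This call therefore does not measure that step. The call ended without any one of the 5 sections (adjusted p = 0.0707 to 0.164). It also ended with median-of-ratios scaling (adjusted p = 0.242), without mitochondrial and haemoglobin genes (0.213), with a pseudocount of 0.1 CPM (0.0533), with class scores of at least 0.5 (0.0978) and with score-weighted means (0.101). Gsg1l gave 0.98 (0.23 to 1.74, adjusted p = 0.139) and Glo1 0.14 (−0.15 to 0.43).

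For non-cardiomyocyte against CM1 spots, 1 of 13334 genes passed, or 0.0075%, and no member did by limma. 1 member, AI506816, had an unadjusted p under 0.05, at 0.56 (0.04 to 1.08, adjusted p = 0.668). Cyfip2 gave 0.36 (−0.14 to 0.86) and Glo1 0.10 (−0.12 to 0.33). The Glo1 interval is narrow beside the MI minus sham differences of 1.03 in CM1 and 1.13 in non-cardiomyocyte spots, while that of Gm12167 (−1.60 to 0.12) leaves a wide span.

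Apart from the members themselves, the genes around them stepped about as often as other genes. Members are left out of these counts. Yet Cyfip2, Thg1l and Gm12167 lie within 500 kb of each other, as do Jmjd7 and Pla2g4b. The rule could also pick a gene for lying next to a stepping gene. That choice can lower these counts, so nothing is read from them on clustering. Of 60 other shared genes within 500 kb, 7 had section means spanning at least 1 on the log2 scale, where 11.9% of all shared genes did. Of the 44 with a mean of at least 5 CPM, 4 did, against 9.42% of such genes, and their median span was 0.40, against 0.46. Adam19, a metalloprotease gene 46.5 kb from Cyfip2 and placed between it and Thg1l, was at 67.9 to 77.4 CPM in the 5 sections, a span of 0.19. Btbd9, 8.45 kb from Glo1, was at 9.65 to 13.3 CPM, and its 3 MI values lay above both sham values. Dnah8, which overlaps Glo1 on the opposite strand, had that order too, at 0.518 and 0.780 CPM in sham and 1.55 to 1.69 CPM in MI sections, as did Ganc, Zfp106, Il21r and Zfp758. These are 6 of the 60 neighbours, or 5 of the 57 that reach 1 CPM in at least 2 sections, against the 6.84% of genes given above. The reverse order, with all MI sections below both sham sections, was held by 7 of the 60 (Oip5, Kdm8, Zfp385b, 1700097N02Rik, 2700038G22Rik, Fam126a and Klhl7), or 6 of the 57, against 9.6% of genes. Gm12166, the other shared gene between Thg1l and Cyfip2, ran from 7.61 CPM in sham day 3 and 13.3 in sham day 7 to 16.9 in MI day 3 and 11.9 and 17.3 in MI day 7, so of the genes in that gap Adam19 was even and Gm12166 was not.

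The 7 neighbours that did span 1 were Gm12166 near the chromosome 11 genes (1.09), Oip5 (1.62), Nusap1 (1.25), Itpka (1.12) and Pla2g4e (1.64) near Jmjd7 and Pla2g4b, Abcg1 near Glo1 (1.96) and 2700038G22Rik near AI506816 (2.20). Nusap1, a mitotic spindle protein, and Abcg1, a cholesterol exporter, stepped by at least 1 in every class. Abcg1 was at 7.46 CPM in sham day 3, 19.2 in MI day 3, 5.42 in sham day 7 and at 6.68 and 4.18 in MI day 7, which is high in MI day 3 alone. Nusap1 was lowest in MI day 7 replicate 1 (9.54 CPM) and highest in sham day 3 (24.1 CPM). The adjacent genes Mapkbp1, Ehd4, Xpo6, D430042O09Rik, Med7, Lsm11, Pus7, Gm43566, Zfp385b, Ube2e3, Zfp946, Zfp40 and 1700097N02Rik spanned less than 1.

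**Figure D4:**
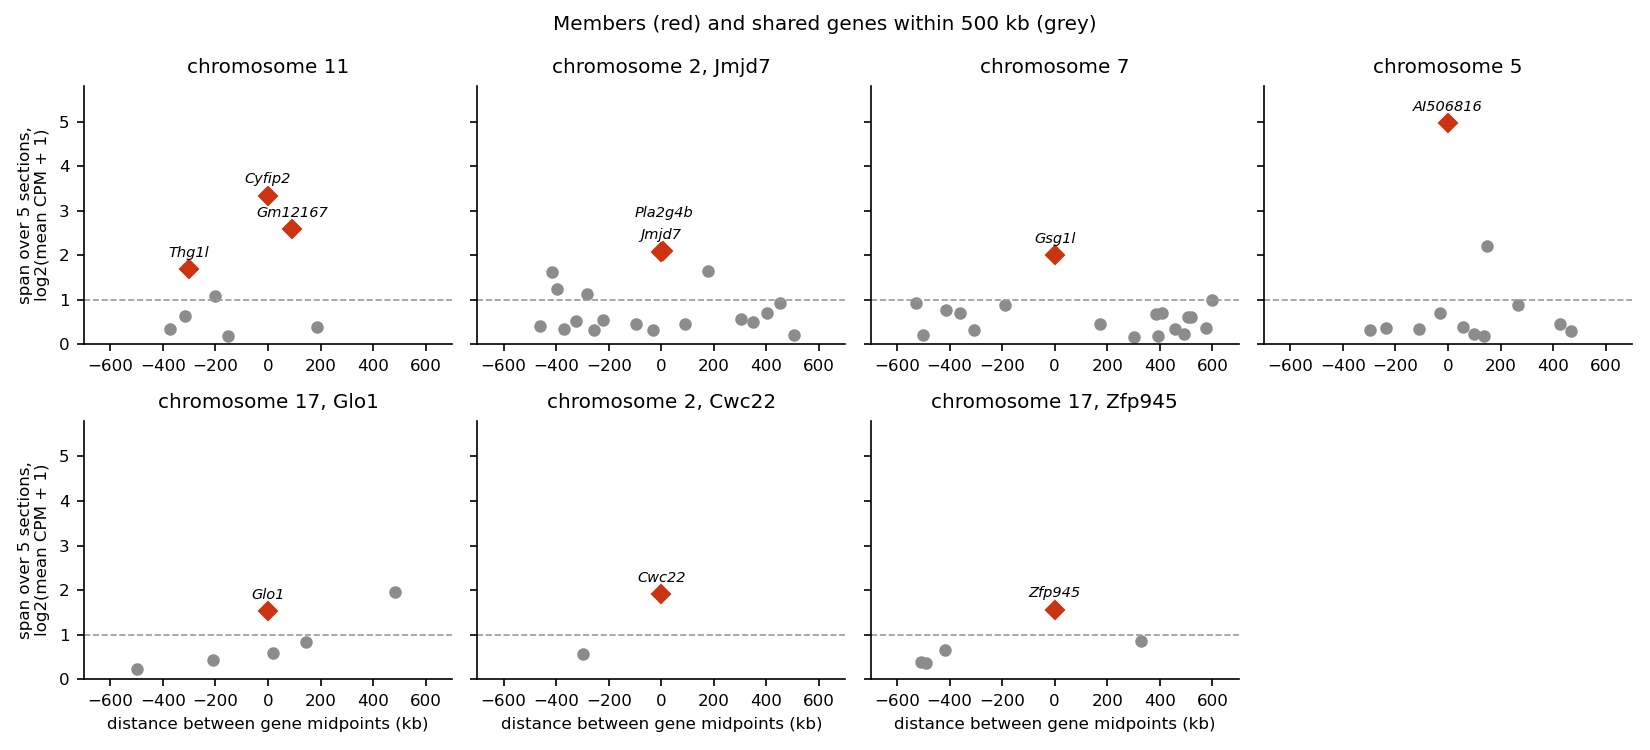
Log2 difference between the highest and lowest section (y axis) of the members (red) and of shared genes within 500 kb (grey), against the distance between gene midpoints (x axis, kb), one panel per locus. Most neighbours lie below 1, and 7 of 60 lie at or above it.

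Copies elsewhere in the genome limit some of these values. The last 500 bases of the Cyfip2, Thg1l, Gm12167 and Gsg1l transcripts matched no other gene in the annotation. Glo1 matched the processed pseudogene Gm13443 at 100% over 268 bases, and Cwc22 matched Gm13691 at 97.4% over 418 bases. Matches of 90% or more over at least 100 bases were found in 73 other genes for Pla2g4b, 19 for AI506816, 13 for Glo1 and 7 for Cwc22. Zfp945 matched Olfr366 at 84.1% over 170 bases. How the counting placed reads of such shared stretches is not given in the sources used here, so Pla2g4b, AI506816, Glo1 and Cwc22 are uncertain to that degree.

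The closest copy of AI506816 is its neighbour 2700038G22Rik, a long non-coding RNA on the plus strand 138 kb away, with 95.4% identity over 347 bases. It was named by the neighbour rule, but the pairing was singled out after its values were seen. The 2 matched exon stretches are shown because reads from them would differ at few bases. They are chr5:23700228-23700471 (minus strand, AI506816-204) and chr5:23853771-23854008 (plus strand, 2700038G22Rik-201) in GRCm38, 95.1% identical with 6 mismatches and 6 gap positions, and capitals mark the bases that differ.
AI506816-204: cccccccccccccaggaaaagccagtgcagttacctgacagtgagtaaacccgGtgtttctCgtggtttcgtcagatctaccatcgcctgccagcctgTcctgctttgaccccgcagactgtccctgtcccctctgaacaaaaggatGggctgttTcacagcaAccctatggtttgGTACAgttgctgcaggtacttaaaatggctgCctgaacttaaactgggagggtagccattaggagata
2700038G22Rik-201: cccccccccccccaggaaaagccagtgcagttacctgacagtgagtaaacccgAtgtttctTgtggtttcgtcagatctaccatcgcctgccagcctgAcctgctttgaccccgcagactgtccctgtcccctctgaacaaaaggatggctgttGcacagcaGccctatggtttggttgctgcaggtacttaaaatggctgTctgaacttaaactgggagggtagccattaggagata
The section order of 2700038G22Rik was the exact reverse of that of AI506816. It was at 12.7 CPM in sham day 3, 10.1 in sham day 7, 6.31 and 4.87 in MI day 7 replicates 1 and 2, and 1.99 in MI day 3. AI506816 therefore held 7.85% and 18.3% of the pair's summed CPM in sham day 3 and sham day 7, and 97.0%, 70.4% and 82.9% in MI day 3 and the MI day 7 replicates. The sum itself still ran from 12.4 CPM in sham day 7 to 65.9 in MI day 3, so the pair did not hold a fixed total. How reads were placed between the 2 genes was not tested. Fam126a and Klhl7, on the same side of AI506816 and singled out after their values were seen, were also among the 7 neighbours with all MI sections below both sham sections. Fam126a was at 61.8 and 49.2 CPM in sham day 3 and sham day 7, and at 36.5, 41.4 and 33.04 in MI day 3 and the MI day 7 replicates. Klhl7 was at 40.6, 41.6, 29.9, 35.0 and 30.6 CPM in the same order, a span of 0.46 on the log2 scale against 0.88 for Fam126a.

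**Figure D5:**
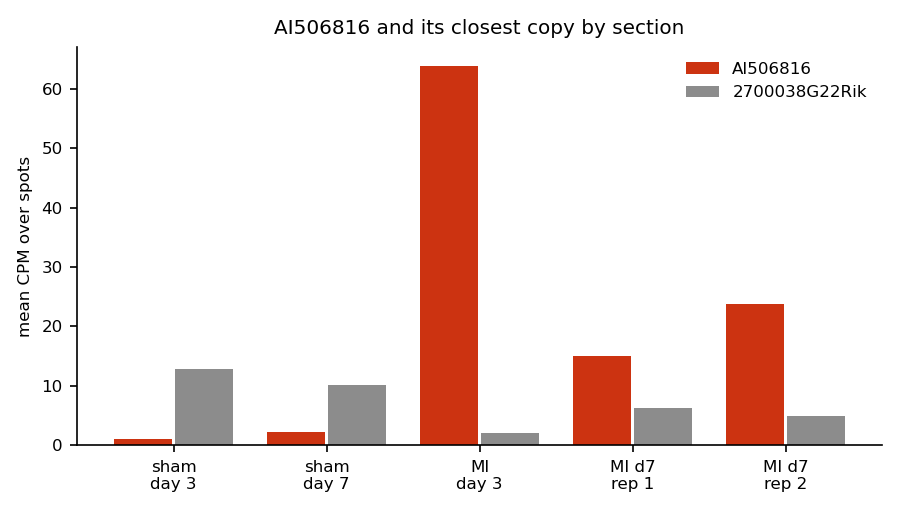
Mean CPM (bars, y axis) of AI506816 and of its neighbour 2700038G22Rik in the 5 sections (x axis). AI506816 runs from 1.08 to 63.9 CPM, and 2700038G22Rik from 12.7 to 1.99 CPM over the same order of sections.

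The relatives of the members by function spanned 1 in 2 of 44 genes, against the 11.9% of all shared genes. Of 10 WAVE complex genes, 1, Nckap1l, the subunit of blood cells, spanned at least 1 (2.03) and did so in every class, while none was higher in all MI sections than in both sham sections and Nckap1 was lower in all of them. Of 3 cytosolic phospholipase A2 genes in the shared set, Pla2g4e spanned at least 1. No gene did among 8 of methylglyoxal and aldehyde handling, 8 of the exon junction complex, 7 JmjC hydroxylases, 4 of the AMPA receptor and 4 known to vary among C57BL/6 substrains. Aldh2, an aldehyde dehydrogenase, was higher in every MI section than in both sham sections, the only one of the 44, and 3 (Nckap1, Kdm8 and Ide) were lower in every one.

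By class, 15 of 42 tested relatives rose and 2 fell in non-cardiomyocyte spots against CM1 spots, against the 33.2% called over all genes. The WAVE complex held 7 of the 15, of 9 tested: Nckap1l rose by 1.00, Cyfip1, the close paralogue of Cyfip2, by 0.42 and Wasf2 by 0.34 (limma adjusted p = 0.00554, 0.00518 and 0.00272), and Brk1, Nckap1, Abi1 and Abi2 by 0.17 to 0.33. With median-of-ratios scaling 1 of these calls was left, that of Nckap1l. Of the 9 differences, 8 were positive, and 6 with that scaling, where Nckap1 and Wasf1 took the opposite sign. No WAVE gene was called lower under either scaling alternative. Pla2g4a rose by 0.76 and the AMPA receptor genes Gria3 and Cnih2 by 0.77 and 0.90, and these 3 calls held under both scaling alternatives. The exon junction genes Eif4a3, Magoh and Upf2 rose by 0.22 to 0.31 and the aldehyde genes Akr1a1 and Aldh2 by 0.32 and 0.30, calls that all ended with median-of-ratios scaling. Hagh, which acts after Glo1, and Ide, an insulin-degrading protease on the substrain list, each fell by 0.23, and both also passed under the 2 scaling alternatives. None of the 7 JmjC genes passed (1 at an unadjusted p under 0.05), and Riox2 of that list was called lower with median-of-ratios scaling, as were Akr1b3, an aldo-keto reductase, and Nnt, a substrain gene. The calls of relatives thus went from 15 higher and 2 lower to 4 higher and 5 lower with that scaling, and to 8 higher and 3 lower without mitochondrial and haemoglobin genes. By limma no relative passed in the CM4 comparison or in the CM4 and non-cardiomyocyte tests of the MI minus sham difference, where 6, 10 and 2 had an unadjusted p under 0.05.

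Markers of other cells also moved with surgery. The 5 macrophage markers (Lyz2, C1qa, Cd68, Adgre1 and Ptprc) summed to 75.0 CPM in sham day 3 and 80.5 in sham day 7, and to 813, 126 and 206 CPM in MI day 3 and the MI day 7 replicates, and 4 of the 5 were higher in every MI section than in both sham sections. The 5 blood genes summed to 4411 and 6901 CPM in the sham sections and 8567 to 11385 CPM in the MI sections, and all 5 followed that order. The 5 fibroblast markers ran from 2472 to 2492 CPM in sham and 2852 to 4014 CPM in MI sections, with 3 of 5 in that order. T and B cells were represented by Cd79a alone, at 0.401 to 1.80 CPM, since Cd3d, Cd3e and Ms4a1 were not in the shared set. All 5 macrophage markers rose in non-cardiomyocyte spots against CM1 spots (4 of 5 under either scaling alternative), where Cyfip2 and Glo1 gave the values above. The part of these cells in the members' steps was not tested.

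Of the 5 macrophage markers, 4 stepped by at least 1 in every class (Lyz2, C1qa, Cd68 and Adgre1). So did Npr3 of the endocardial and Msln of the epicardial markers. The 5 blood genes did not step by 1 in every class. The 4 haemoglobin genes had a smaller MI minus sham difference in CM4 than in CM1 spots, where Zfp945 had a larger one. No endothelial, mural, epicardial, endocardial or glial marker in the shared set was higher in all MI sections than in both sham sections. Of the 4 endothelial markers, 3 were lower in every MI section than in both sham sections: Kdr was at 122 and 127 CPM in sham and 101 to 118 in MI sections, Cdh5 at 206 and 209 against 186 to 204, and Cldn5 at 105 and 94.4 against 70.7 to 77.0. Tnnt2 of the cardiomyocyte markers had that order too. Cardiomyocyte markers spanned less than 1 in 5 of 5 genes.

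Across the 5 section means, the genes most like Cyfip2 by Pearson r of log2(CPM + 1), among 961 genes with a mean of at least 5 CPM and a span of at least 1, were Sod3 (0.967), Atp2a3 (0.958) and Islr (0.957). These points share libraries, and 7 of the 961 genes had r above 0.9. Sod3, the extracellular superoxide dismutase on chromosome 5, was at 5.47 CPM in sham day 3, 10.1 in sham day 7, 13.0 in MI day 3, and 15.7 and 18.0 in MI day 7. Its 3.30-fold range was narrower than that of Cyfip2. Atp2a3, a calcium pump gene on chromosome 11, ranged 3.44-fold, and Islr, a gene of the extracellular matrix on chromosome 9, 2.09-fold.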

How the data were processed

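Expression tables and spot metadata of 5 Visium sections of neonatal hearts were used. The members and gene lists were chosen with earlier results of these data known. Per the labels and methods, the authors aligned reads to mm10 (GRCm38) with Space Ranger, normalised with sctransform and transferred single-nucleus labels in Seurat 3.2; the Space Ranger and sctransform versions were not given in the sources used here. The deposited sham day 3 table holds raw UMI counts. The other 4 deposited tables hold sctransform-corrected counts, whole numbers treated as a score, and list genes seen in at least 5 spots. The metadata deposited by the authors give UMI and gene counts per spot, 11 cell type scores as fractions of 1, and image positions. Every expression value comes from these tables, and coordinates, sequences and sequence matches come from GENCODE and RefSeq.

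Each spot was scaled to CPM over the 13711 genes listed in all 5 tables, and averaged over the spots of a section or of a section and class, the class being the highest score. Two-sided limma 3.58.1 tests (R 4.3.3) with a mean-variance trend used log2(mean CPM + 1) of genes with at least 1 CPM in at least 2 profiles, with Benjamini-Hochberg adjustment over all genes and a threshold of 0.05; the section was the replicate. P-values measure the spread between these sections only. The fit was tested on simulated data. Sequences were matched with BLAST 2.17.0 against GENCODE transcripts and RefSeq promoters. Named genes were the 10 members, adjacent genes and neighbours within 500 kb spanning at least 1, the 3 genes most like Cyfip2, and relatives that were called or spanned at least 1; neighbours named for the order of their sections (Dnah8, Ganc, Zfp106, Il21r, Zfp758, Kdm8, Fam126a and Klhl7), and relatives named for that order or for a call under another scaling (Riox2, Akr1b3, Nnt), were chosen after their values were seen. Alternatives were the pseudocount, the low-value filter, scaling, the section block, class definition, depth of spots, sctransform correction of the sham day 3 table with Seurat 5.3.0, and each section left out. Removing spots under 5000 UMIs, leaving out sections for the count of members ordered by surgery, and setting sham day 3 zeros at their limit, were chosen after seeing the data. No column was left out as belonging to another series.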

Additional observations from a re-analysis of the deposited data

Results flagged for a closer look

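The MI minus sham difference of Zfp945 differed between CM4 and CM1 spots by 1.20 on the log2(CPM + 1) scale, a test of the difference itself. In CM4 spots Zfp945 was at 16.2 and 3.71 CPM in sham day 3 and sham day 7, and at 15.5, 27.8 and 26.5 CPM in MI day 3 and the MI day 7 replicates. The sham values rest on 15 UMIs and 5 corrected counts. Since the step of Zfp945 cut across surgery, this difference does not measure that step. The call ended when any one of the 5 sections was left out (limma adjusted p = 0.0707 to 0.164), and also with median-of-ratios scaling, without mitochondrial and haemoglobin genes, with a pseudocount of 0.1 CPM, with class scores of at least 0.5 and with score-weighted means.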

How the results depend on the processing

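The number of members with all MI sections above both sham sections was 8 under each alternative scaling, correction and filter run. When a section was left out it was 8 to 9 (9 without sham day 3, where Zfp945 joined). Leaving out a section can only keep or add members under this criterion, so the floor of 8 was fixed in advance. The number with a step of at least 1 in every class was 10 with score-weighted means and 4 to 9 when a section was left out (4 without sham day 7). Counts of called genes moved more. Without the section block, that is with no pairing of classes within a section, 0 genes were higher and 0 lower in CM4 than in CM1 spots, 580 were higher and 3 lower in non-cardiomyocyte spots, and Cwc22 lost its call (adjusted p = 0.761). Class differences have the same estimate with or without the block, so their signs could not change. The calls of the other members did not change without the block. It stayed in both tests of the MI minus sham difference. Median-of-ratios scaling gave 55 lower in CM4 spots, 1626 higher and 1697 lower in non-cardiomyocyte spots, and 20 and 34 in the CM4 test of the MI minus sham difference. Leaving out mitochondrial and haemoglobin genes gave 15, 2520, 810, 18 and 9 for the same counts. Score-weighted means gave 547 higher and 43 lower in CM4 spots and 741 and 31 in that test, a pseudocount of 0.1 gave 3 lower and 100 larger, and sctransform correction of sham day 3 gave 476 larger. With single sections left out, the counts ran from 71 to 284 higher and 0 to 22 lower in CM4 spots, 2781 to 3556 and 128 to 477 in non-cardiomyocyte spots, 19 to 324 and 6 to 30 in the CM4 test of the MI minus sham difference, and 0 to 510 and 0 to 154 in the non-cardiomyocyte one, where 510 and 154 came without MI day 7 replicate 1. Beyond the settings themselves, the cause was not tested.

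Some member differences took the opposite sign under an alternative. In CM4 spots these were Cyfip2 (−0.064 with median-of-ratios scaling, −0.015 without mitochondrial and haemoglobin genes, −0.0048 after sctransform), Jmjd7 (−0.064, −0.021 and −0.030 in the same order, and −0.075 with a pseudocount of 0.1), Cwc22 (−0.119 with scores of at least 0.5) and Zfp945 (0.029 score-weighted). In non-cardiomyocyte spots they were Glo1 (−0.144 and −0.038 with the 2 scalings), Zfp945 (−0.0083 with median-of-ratios scaling), Gm12167 (−0.120, −0.045 and, score-weighted, −0.019) and Jmjd7 (−0.149, −0.057 and −0.024, with −0.029 at scores of at least 0.5, −0.0050 after sctransform and −0.016 in spots of at least 5000 UMIs). With single sections left out, signs changed in CM4 spots for Cyfip2 (−0.147 to 0.351), Gm12167 (−0.330 to 0.094), Jmjd7 (−0.200 to 0.265), Pla2g4b (−0.725 to 0.0060), Gsg1l (−0.048 to 0.408) and Zfp945 (−0.335 to 0.106), and in non-cardiomyocyte spots for Gm12167 (−0.246 to 0.187), Jmjd7 (−0.098 to 0.070) and Pla2g4b (−0.226 to 0.032). Calls were gained by AI506816 in CM4 spots (0.43 score-weighted, adjusted p = 0.0399), by AI506816 in non-cardiomyocyte spots (0.44 without sham day 3, adjusted p = 0.0135) and by Gsg1l in the CM4 test of the MI minus sham difference (0.81 score-weighted, adjusted p = 0.0380). The Zfp945 call in that test also ended with a pseudocount of 0.1, both scalings, scores of at least 0.5 and score-weighted means. Of 326 member values under alternatives, 267 kept their sign and side of the threshold. These values include those without the section block, whose sign could not change. The low counts of Pla2g4b, Gm12167 and Thg1l in small classes limit what could be seen there.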
